A study of Sus scrofa with 20 samples.

Results

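Cytokines, chemokines and their receptors were followed in the hearts of 20 female pigs. The genes were chosen by symbol: those of the CCL, CXCL, CCR, CXCR, IL (without IL18), TNF, IFN, TGFB and CSF families that the array's probe table names singly. This gave 83 of the 6765 genes with such a name, of which 49 encode ligands, 29 encode receptors and 5 encode neither (IL18BP, TNFAIP1, TNFAIP6, TNFAIP8 and TNFAIP8L2). For every gene the probe set with the highest average over the 20 arrays was read, and all 83 were tested. The series title asks how preconditioning after chronic ischemia differs from the classical second window, the delayed protection that follows a short ischemic stimulus. Animals of the control group (n = 5) had a sham operation. In the SWOP group (n = 5) a coronary artery was closed 2 times for 10 min, with 10 min of flow after each, and the heart was reperfused for 24 h. In the RCO group (n = 5) 10 min closures were given in 6 episodes spaced by 12 h; the series description puts 2 closures in each episode, whereas the sample labels mention a single 10 min closure per episode. The RCS group (n = 5) had 6 episodes of 90 min of reduced coronary flow at the same spacing. The time of sampling after the last RCO or RCS episode, the part of the heart that was taken, and the age and breed of the animals are not stated in the labels.

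Cytokines are secreted proteins that cells use to signal to their neighbours, and chemokines are those that direct the migration of leukocytes. Chemokines act through G protein-coupled receptors, interleukins and interferons mostly through receptor chains that carry JAK kinases, TNF family ligands through trimeric receptors that reach NF-kB, and TGF-beta through receptor kinases that phosphorylate SMAD proteins. In the ischemic heart, early cytokines such as TNF, IL1B and IL6 are known for starting inflammation, CCL2 for drawing in monocytes, and TGF-beta for the later turn to repair.

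Values are the deposited log2 signals of the Affymetrix porcine array, with each animal on an array of its own, so a difference of 1 is a 2-fold change. Differences were tested with limma on all 20 arrays and 23999 probe sets, and a gene was said to pass where its p, adjusted by Benjamini-Hochberg, lay below 0.05. Array medians lay between 6.75 and 6.82. The number of arrays limits the precision: the median standard error (SE) of a difference between 2 groups was 0.11 over all probe sets and 0.14 over the 83 genes. Cardiomyocyte markers were abundant in every heart, with a mean of 13.55 to 14.28 over 8 genes. Arrays did not always sit with their group. Among the 83 genes, the control replicate 4 array read more than 1 log2 unit above the median of the other controls in 7 genes, and the RCO replicate 2 array did so against the other RCO arrays in 15. The median SD of a gene was 0.19 in the control group, 0.14 after SWOP, 0.27 after RCO and 0.18 after RCS. Measures of the arrays themselves moved with the groups. The difference between the actin probe sets at the 3′ and 5′ ends, a sign of RNA integrity, was 1.24 to 1.96 in control, 1.22 to 1.70 after SWOP and 0.51 to 0.73 after RCS. It was 0.78 and 0.79 on RCO replicates 2 and 3 and 1.12 to 1.69 on the other RCO arrays. The mean spike-in signal was 9.28 to 9.56 on RCS arrays and 9.73 to 9.81 on controls, and the interquartile range 3.27 to 3.44 against 3.04 to 3.16. Their part in the results was not tested. In tissue RNA, fewer cells of a type and less RNA per cell cannot be told apart.

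RCS was the protocol with the most changes in this gene family. Against control 49 of 83 genes passed, 22 higher and 27 lower, beside 54.5% of all genes (28.8% higher and 25.7% lower). All RCS arrays lay above all controls in 20 genes and below in 12, beside 23.3% and 16.9% of all genes. After quantile normalization the split was 22 higher and 18 lower. The share of called genes was thus near that of the whole array. The counts by direction were unlike in ligands and receptors, a difference that was not tested. Of the 29 receptors 14 rose and 5 fell (median difference 0.05), whereas of the 49 ligands 6 rose and 21 fell (median −0.24), against a median of 0.00 over all genes. Among the 23 receptors with a mean signal above the 30th percentile of the array (log2 5.48) the median was 0.72. It was −0.16 among the 33 ligands that bright and 0.05 among all genes that bright. In RCO 8 genes passed, 6 higher and 2 lower, beside 15.6% of all genes, and in SWOP 4 passed, all lower, beside 8.16%.

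**Figure D1:**
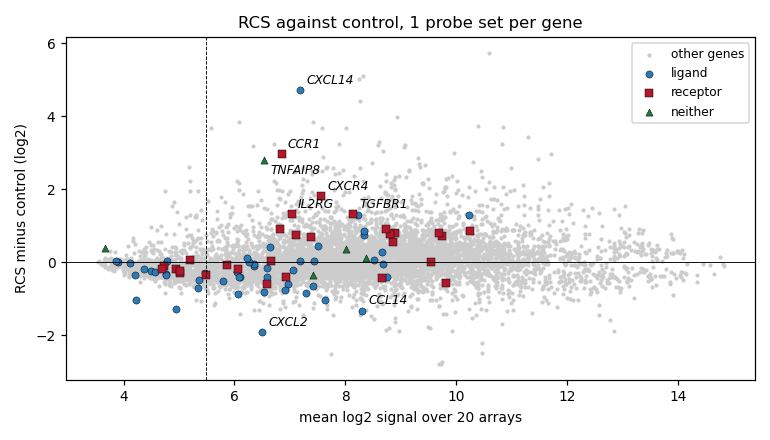
RCS minus control difference (log2) against the mean log2 signal over 20 arrays for 6765 genes in grey, with ligands in blue, receptors in red and the 5 genes that are neither in green. The dashed line marks log2 5.48, the 30th percentile of signal. CXCL14 (4.72), CCR1 (2.97) and TNFAIP8 (2.79) lie highest, and most ligands left of the line lie under 0.

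CXCL14, a chemokine made by many epithelial and stromal cells, showed the largest change of the 83 genes against control. Listed as replicates 1 to 5, here and below, its control arrays read 4.90, 5.01, 6.21, 5.55 and 4.72 and its SWOP arrays 5.52, 5.06, 5.32, 5.92 and 5.30. The RCO arrays read 5.23, 11.73, 9.38, 7.17 and 6.63, and the RCS arrays 10.04, 10.89, 10.19, 9.87 and 8.98. Every RCS array thus exceeded every control and SWOP array, while RCO ran from the control range to above the RCS range. RCS was 26.3-fold higher than control (4.72 ± 0.77, SE, limma adjusted p = 9.6e-05). The second CXCL14 probe set rose by 3.50 (limma adjusted p = 0.00059).

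CCL2, the chief attractant of monocytes, was uniform in RCS and scattered in control. The control arrays read 8.84, 9.01, 9.19, 12.11 and 9.97, the SWOP arrays 9.96, 8.61, 9.59, 9.60 and 9.35, and the RCO arrays 10.12, 11.82, 10.55, 10.32 and 10.18. All RCS arrays lay at 11.05, 11.08, 11.21, 11.22 and 11.07, above each control array but replicate 4. The difference was 1.30 ± 0.46 (SE, limma adjusted p = 0.025). It was 1.87 without control replicate 4 (adjusted p = 0.00014), and 1.06, 1.10 and 1.14 without control replicates 1, 2 and 3, where the call was lost (adjusted p = 0.072, 0.071 and 0.06). In RCO, CCL2 did not pass (0.77 ± 0.46, adjusted p = 0.29), but without control replicate 4 it did (1.35, limma adjusted p = 0.012).

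The TGF-beta ligands, which drive matrix deposition and restrain inflammation, divided by isoform. TGFB1 read 8.09, 8.20, 8.01, 8.07 and 8.17 in control and 8.70, 8.86, 9.46, 9.05 and 8.66 in RCS, with no overlap (0.84 ± 0.18, SE, limma adjusted p = 0.0012). TGFB3 read 7.26, 7.54, 7.80, 8.04 and 7.74 in control and 8.62, 9.44, 9.33, 9.16 and 8.34 in RCS, again apart (1.30 ± 0.28, adjusted p = 0.001). Its RCO arrays split into replicates 2 and 3 at 9.35 and 9.26 and the others at 7.84, 8.17 and 7.78. TGFB2 differed from control by 0.02 ± 0.24 in RCS (95% interval −0.48 to 0.52) and passed only between RCS and SWOP (0.76, limma adjusted p = 0.022), which was lost without SWOP replicates 2 or 5 or RCS replicate 4. Of its 3 other probe sets 1 rose in RCS (0.36, adjusted p = 0.008). A second probe set of TGFB1 rose too (0.59, adjusted p = 0.0019), and that of TGFB3 did not pass (0.57, adjusted p = 0.081).

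The other ligands higher in RCS were CCL5, which attracts T cells and monocytes, and TNFSF13, a B cell survival factor. CCL5 read 7.80, 7.52, 7.32, 8.13 and 8.46 in control and 8.64, 8.46, 8.87, 8.53 and 8.45 in RCS. The groups met only at control replicate 5 (0.74 ± 0.24, SE, limma adjusted p = 0.016). TNFSF13 was higher by 0.40 ± 0.12 (adjusted p = 0.01), but its second probe set lay at −0.11, and the mean of both probe sets did not pass (0.14, adjusted p = 0.15).

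**Figure D2:**
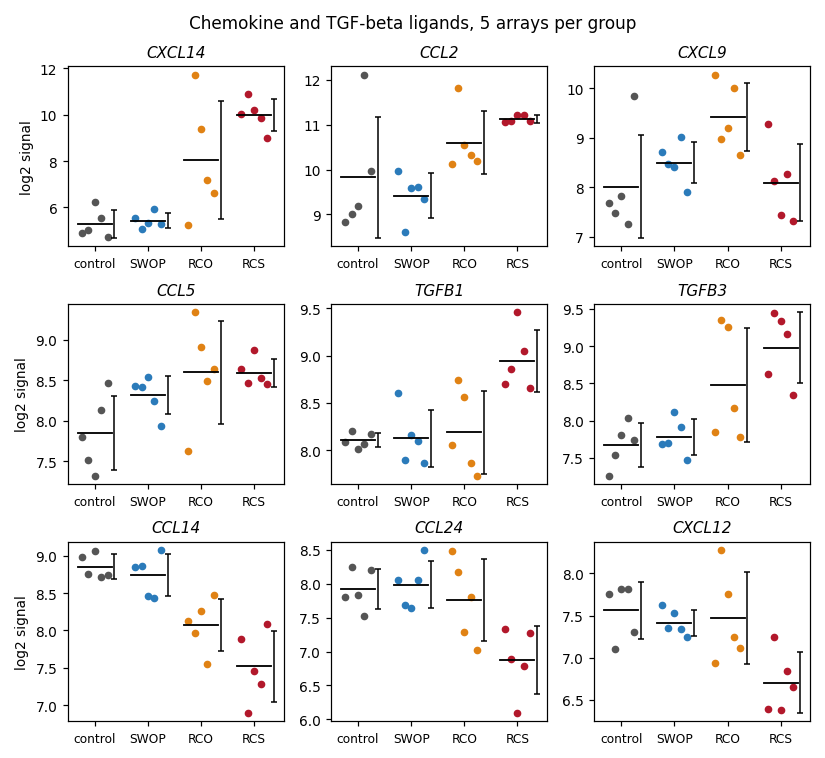
Log2 signal of 9 ligands in the 4 groups, 1 point per array, with the mean as a line and the SD as a bar (n = 5). CXCL14, TGFB1 and TGFB3 of RCS lie above all control points, CCL14 and CCL24 of RCS lie below them, and control replicate 4 of CCL2 stands at 12.11.

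Ligands that fell in RCS included chemokines of resting tissue. CCL14, a plasma chemokine made without stimulation, read 8.99, 8.75, 9.07, 8.71 and 8.74 in control, 8.13, 7.97, 8.26, 7.55 and 8.47 in the RCO group, and 7.89, 6.89, 7.45, 7.28 and 8.08 in the RCS group. Both repeated protocols lay wholly below control. The RCS difference was −1.33 ± 0.20 (SE, limma adjusted p = 3.4e-05), a 2.52-fold fall, and SWOP differed by −0.11 (adjusted p = 0.75). CCL24, an attractant of eosinophils, read 7.81, 8.24, 7.84, 7.53 and 8.21 in control and 7.33, 6.89, 6.09, 6.79 and 7.28 in RCS (−1.05 ± 0.26, limma adjusted p = 0.0031). CXCL12, the ligand that holds progenitor cells through CXCR4, read 7.76, 7.10, 7.82, 7.82 and 7.31 in control and 6.39, 7.25, 6.38, 6.84 and 6.65 in RCS. Only RCS replicate 2 reached into the control range (−0.86 ± 0.22, limma adjusted p = 0.0034). The second CXCL12 probe set did not pass (−0.65, limma adjusted p = 0.19). IL15, which sustains natural killer and memory T cells, read 7.63, 7.73, 7.32, 7.68 and 7.81 in control against 7.33, 6.84, 6.79, 7.03 and 6.89 in RCS (−0.66 ± 0.11, limma adjusted p = 0.00013). Its RCS replicate 1 just touched the lowest control.

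TNF and CSF3, cytokines of acute inflammation and granulocyte production, were lower in RCS and in SWOP. TNF read 7.04, 6.92, 6.50, 7.30 and 7.0 in control, 6.55, 6.23, 6.54, 6.24 and 6.31 in SWOP, and 5.97, 6.13, 5.89, 6.14 and 6.51 in RCS. Control replicate 3 was the array that met both other groups. The RCS difference was −0.82 ± 0.14 (SE, limma adjusted p = 9.8e-05). CSF3 read 6.32, 6.54, 6.32, 6.80 and 6.45 in control, 6.06, 5.80, 6.02, 5.88 and 6.05 in SWOP, and 5.60, 5.71, 5.61, 5.49 and 5.67 in RCS. These 3 groups of CSF3 did not overlap, and RCS fell by 0.87 ± 0.10 (limma adjusted p = 3.9e-06). TNFSF10, a death ligand, fell by 0.71 ± 0.21 (adjusted p = 0.01) and CCL4, a monocyte attractant, by 0.40 ± 0.14 (adjusted p = 0.029), which was lost without control replicate 4 (0.082), control replicate 5 or RCS replicate 3. CXCL2, a neutrophil attractant, fell by 1.93 ± 0.65 (limma adjusted p = 0.021), and by 1.02 without control replicate 4 (adjusted p = 0.023).

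The interferons and T cell cytokines moved little. IFNA1 and IFN-DELTA-1 fell by 0.40 and 0.42, with no overlap between RCS and control (limma adjusted p = 0.00061 and 0.0018). IFNB1, IFNG, IL2, IL4, IL13, IL21, CSF2, CCL25, CCL27 and TNFSF4 fell by 0.22 to 0.49. Quantile normalization ended 9 of the falls in RCS, those of CCL25, IFNB1, IFNG, IL13, IL2, IL21, IL4 and the receptors IL2RA and IL6R. The falls of CCL25 (control replicates 2 and 4, RCS replicates 1 and 3), IFNB1 (RCS replicate 3), IFNG (control replicates 2 and 5, RCS replicates 2 and 3), IL2 (control replicate 2, RCS replicate 4) and IL4 (control replicate 2, RCS replicate 1) were also lost without any 1 of the arrays in brackets. All 9 but CCL25 and IL2RA had a mean signal under the 30th percentile. Of the 16 ligands under it 8 fell and 0 rose, with 9 at an unadjusted limma p below 0.05, beside 39.4% lower and 8.86% higher among all genes that dim. The median of dim probe sets was 4.53 to 4.59 on control arrays and 4.40 to 4.48 on RCS arrays, and its part in these falls was not tested.

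IL6, CXCL8 and IL1B, the classical early cytokines, passed in no comparison with control, and 1 control heart set their spread. IL6 read 4.53, 4.57, 4.68, 9.98 and 5.67 in control, 4.58, 4.46, 4.39, 4.40 and 4.58 in SWOP, 4.48, 5.33, 4.60, 4.69 and 4.91 in RCO, and 4.71, 4.86, 4.43, 4.48 and 4.51 in RCS. CXCL8, the main neutrophil attractant, read 3.86, 3.88, 3.80, 8.96 and 4.19 in control, and 3.77 to 5.18 on the arrays of the other groups. IL1B read 6.98, 6.65, 6.70, 10.17 and 7.28 in control, and 6.34 to 7.24 elsewhere. In each of the 3 genes control replicate 4 was far above all 19 other arrays. CXCL2 (11.18), IL1A (8.0), CCL3L1 (7.67) and CCL2 (12.11) were also highest on that array. RCS differed from control by −1.29 in IL6, −1.04 in CXCL8 and −0.77 in IL1B (limma adjusted p = 0.12, 0.2 and 0.15). Without control replicate 4 these were −0.26, −0.04 and −0.12 (limma adjusted p = 0.28, 0.89 and 0.53). The mean of 4 neutrophil markers was 5.10 on that array and 4.89 to 5.09 on the other controls. These means lie under the 30th percentile of the array (log2 5.48), near its background, where a difference could hardly show.

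**Figure D3:**
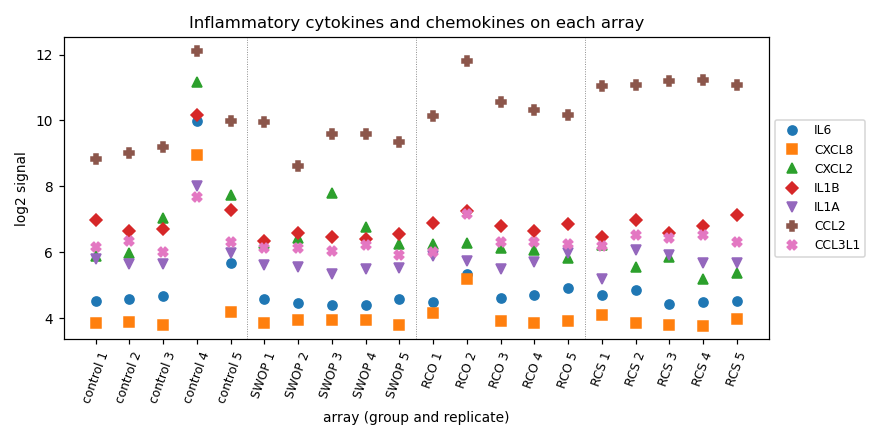
Log2 signal of IL6, CXCL8, CXCL2, IL1B, IL1A, CCL2 and CCL3L1 on each of the 20 arrays, ordered by group and replicate. All 7 genes peak at control replicate 4, and CCL2 alone is uniformly high in RCS (11.05 to 11.22).

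Receptors rose in RCS across the chemokine, interleukin, interferon, TNF and TGF-beta families. Of the 29 receptors 14 had every RCS array above every control array, beside 23.3% of all genes. These were the 14 that passed upward. CCR1, a receptor for CCL5 and related chemokines on monocytes and neutrophils, read 5.75, 5.61, 5.44, 6.49 and 6.04 in control, 6.05, 5.54, 5.81, 5.87 and 5.26 in SWOP, 6.07, 8.75, 7.64, 6.24 and 6.24 in RCO, and 8.57, 8.84, 9.51, 9.0 and 8.27 in RCS. RCO replicates 2 and 3 stood apart from the rest of their group. CCR1 was 7.85-fold higher in RCS (2.97 ± 0.39, SE, limma adjusted p = 1.1e-05). CXCR4, the receptor of CXCL12, read 6.86, 6.34, 6.88, 7.13 and 6.19 in control and 8.59, 8.09, 8.36, 9.10 and 8.25 in RCS (1.80 ± 0.41, limma adjusted p = 0.0017), while its ligand was lower, as given above. The CXCR4 arrays of SWOP read 7.85, 8.11, 7.23, 6.98 and 6.74, and those of RCO 7.26, 8.27, 9.30, 7.68 and 6.03. Both groups overlapped RCS, and CXCR4 passed only between RCS and control. In the RefSeq gene order CCR1 is followed directly by CCR3 and CCR2, and neither differed from control in RCS (−0.12 and 0.04, limma adjusted p = 0.23 and 0.87).

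**Figure D4:**
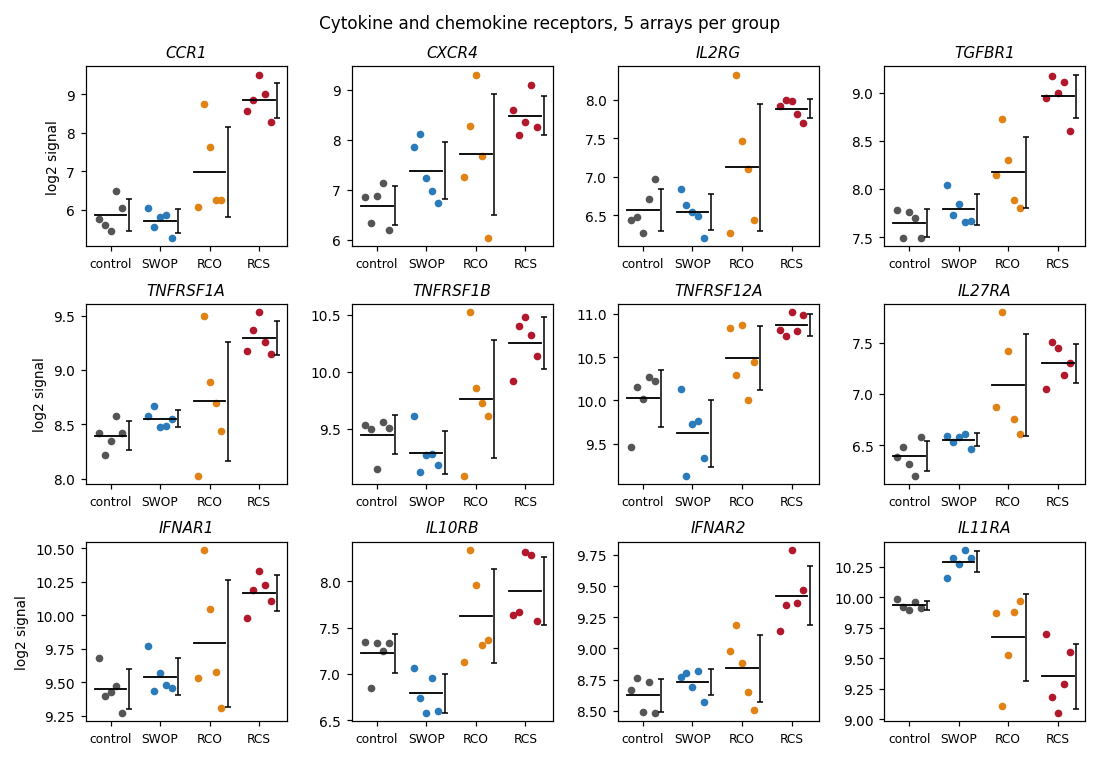
Log2 signal of 12 receptors in the 4 groups, 1 point per array, with the mean as a line and the SD as a bar (n = 5). For 11 receptors all RCS points lie above all control points, and for IL11RA all lie below (9.05 to 9.70 against 9.90 to 9.99).

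TGFBR1, the kinase that transmits TGF-beta signals, rose in RCS, as TGFB1 and TGFB3 did and TGFB2 did not. It read 7.78, 7.49, 7.76, 7.70 and 7.49 in control, 8.14, 8.73, 8.30, 7.89 and 7.80 in the RCO group, and 8.94, 9.17, 9.0, 9.11 and 8.60 in the RCS group. Both protocols lay above control, RCS by 1.32 ± 0.14 (SE, limma adjusted p = 2.3e-06). Of its 2 dimmer probe sets 1 rose (0.70, adjusted p = 0.011) and the other did not pass (−0.28, adjusted p = 0.073). TGFBR3, a co-receptor, did not pass in any comparison.

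Of 5 receptors of the TNF family 3 rose in RCS, where TNF fell. TNFRSF1A, the death-domain receptor found on most cells, read 8.42, 8.22, 8.35, 8.58 and 8.42 in control and 9.17, 9.37, 9.53, 9.26 and 9.15 in RCS (0.90 ± 0.17, SE, limma adjusted p = 0.0004). TNFRSF1B, more restricted to leukocytes and endothelium, read 9.53, 9.50, 9.15, 9.56 and 9.51 against 9.92, 10.40, 10.48, 10.32 and 10.14 (0.80 ± 0.18, adjusted p = 0.0014). TNFRSF12A, a small receptor that injury induces, read 9.46, 10.16, 10.02, 10.27 and 10.22 against 10.82, 10.74, 11.02, 10.80 and 10.99 (0.85 ± 0.19, adjusted p = 0.0013). In all 3 genes the lowest RCS array exceeded the highest control array. TNFRSF21 stayed between 9.01 and 9.76 on all arrays and differed by −0.01 ± 0.10 in RCS (95% interval −0.21 to 0.20), and TNFRSF17, a receptor of plasma cells, by −0.24 ± 0.13 (adjusted p = 0.13).

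Interleukin receptor chains rose in part. IL2RG, the chain shared by the receptors of IL2, IL4, IL7, IL15 and IL21, read 6.44, 6.47, 6.26, 6.71 and 6.97 in control, 6.27, 8.33, 7.46, 7.10 and 6.44 in the RCO group, and 7.92, 8.0, 7.98, 7.82 and 7.70 in the RCS group (1.31 ± 0.26, SE, limma adjusted p = 0.00056). RCO replicate 2 was the highest of all 20 arrays. IL27RA, a chain of the IL27 receptor, read 6.38, 6.48, 6.31, 6.20 and 6.58 in control, 6.87, 7.80, 7.42, 6.75 and 6.61 in the RCO group, and 7.05, 7.51, 7.45, 7.19 and 7.30 in the RCS group. Both protocols lay above control, RCS by 0.91 ± 0.16 (limma adjusted p = 0.00024). IL4R, which binds IL4, and IL1R1, the signalling receptor of IL1, rose by 0.77 ± 0.19 and 0.74 ± 0.20 (limma adjusted p = 0.0027 and 0.0051). Each has a second probe set that did not pass (0.02 and −0.09).

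The interferon receptor chains rose while the interferons measured did not. IFNAR1 read 9.68, 9.40, 9.43, 9.47 and 9.27 in control and 9.98, 10.19, 10.33, 10.23 and 10.11 in RCS (0.72 ± 0.16, SE, limma adjusted p = 0.0012). IFNAR2, its partner chain, read 8.67, 8.76, 8.49, 8.73 and 8.48 against 9.14, 9.35, 9.79, 9.36 and 9.47 (0.80 ± 0.12, adjusted p = 4.9e-05). IL10RB, shared by the receptors of IL10 and interferon lambda, read 7.34, 6.85, 7.33, 7.25 and 7.33 against 7.64, 7.67, 8.32, 8.28 and 7.57 (0.68 ± 0.20, adjusted p = 0.01). These 3 genes are direct neighbours in the RefSeq gene order, with 0 protein-coding genes between them, and in each RCS lay apart from control. IFNGR1, a chain of the interferon gamma receptor, lies elsewhere and rose by 0.56 ± 0.14 (limma adjusted p = 0.0025).

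The 5 receptors lower in RCS were IL11RA, IL12RB2, IL13RA1, IL2RA and IL6R. IL11RA, which binds a cytokine active on fibroblasts and cardiomyocytes, read 9.99, 9.92, 9.90, 9.96 and 9.91 in control, 10.16, 10.32, 10.27, 10.39 and 10.32 in SWOP, and 9.70, 9.18, 9.05, 9.29 and 9.55 in RCS. SWOP lay wholly above control and RCS wholly below (0.36, limma adjusted p = 0.11, and −0.58 ± 0.14, adjusted p = 0.002). IL12RB2, a chain for T helper differentiation, fell by 0.59 ± 0.11 (limma adjusted p = 0.00026), IL13RA1 by 0.44 ± 0.12 (adjusted p = 0.0041), IL2RA by 0.35 ± 0.11 (adjusted p = 0.014) and IL6R by 0.31 ± 0.11 (adjusted p = 0.021). The call of IL6R was lost without control replicate 2 or RCS replicate 3.

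TNFAIP8, a cytoplasmic protein first described as induced by TNF, was the gene of the family with the smallest p against control. It read 5.06, 5.23, 5.34, 5.52 and 5.77 in control, 5.97, 5.49, 5.83, 5.90 and 5.51 in SWOP, 6.26, 7.77, 7.48, 6.73 and 6.18 in RCO, and 8.45, 8.56, 8.39, 7.96 and 7.49 in RCS. Control, RCO and RCS followed each other upward, and only RCO and RCS overlapped. RCS was 6.9-fold higher than control (2.79 ± 0.26, SE, limma adjusted p = 6.8e-07), and its second probe set rose by 0.75 (adjusted p = 9.8e-05). TNFAIP6, a secreted protein that binds hyaluronan, rose by 0.38 ± 0.10 at a signal near the bottom of the array, 3.64 to 4.14 in RCS (limma adjusted p = 0.0033). TNFAIP8L2, a relative that restrains immune signalling, fell by 0.35 ± 0.10 on its brighter probe set (adjusted p = 0.0092) and rose by 1.14 on the other (adjusted p = 8.6e-05), so that the mean of both rose by 0.39 (adjusted p = 0.003). The probe sets of this gene thus disagree in direction. TNFAIP1 ranged from 5.89 to 9.31 and IL18BP, a decoy for IL18, from 7.88 to 8.65, and neither passed in any comparison.

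Leukocyte markers moved with these genes. The mean of 6 genes found in leukocytes of all kinds (PTPRC, LCP1, CORO1A, LAPTM5, CD53 and ITGB2) was 7.38 to 7.93 on control arrays, 7.57 to 7.91 in SWOP and 9.16 to 9.79 in RCS. In RCO it was 7.60, 9.47, 9.14, 8.36 and 8.12, so that replicate 2 stood within the RCS range and replicate 3 just below it. In RCS 5 of the 6 rose and CORO1A fell (−0.28). Among all genes 28.8% rose and 25.7% fell in RCS, and 11.3% rose in RCO. Of 8 macrophage and monocyte markers 4 rose in RCS (FCER1G 2.21, AIF1 2.12, TYROBP 2.01 and CD163 0.97), and CD14 (0.16), C1QA (0.03), MRC1 (−0.05) and ITGAM (−0.26) did not pass. In RCO 3 of them rose (AIF1 1.40, FCER1G 1.21 and TYROBP 1.05). Their mean was 7.35 to 8.01 in control, 7.91 to 9.36 in RCO and 8.34 to 8.69 in RCS. Of 8 T and natural killer cell markers 0 rose in RCS (1 fell, and 2 had an unadjusted limma p below 0.05). Their mean was 5.71 to 6.33 in control and 5.62 to 5.81 in RCS. Of 6 fibroblast markers 4 rose in RCS (mean 9.34 to 10.52 in control and 11.21 to 11.98 in RCS). Of 6 smooth muscle and pericyte markers 4 rose (10.58 to 10.94 and 11.49 to 12.03), and of 8 cardiomyocyte markers 6 fell (14.20 to 14.27 and 13.55 to 14.01). CCR1, IL2RG, TGFBR1 and CXCL14 were high on the arrays where the leukocyte mean was high. The fibroblast mean was 9.85, 11.73, 11.68, 10.77 and 10.55 on RCO arrays. That of smooth muscle and pericyte markers was 10.76, 11.56, 11.70, 11.27 and 11.16. RCO replicates 2 and 3 thus stood within the RCS range of both lists. The part of these cells in the differences was not tested.

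**Figure D5:**
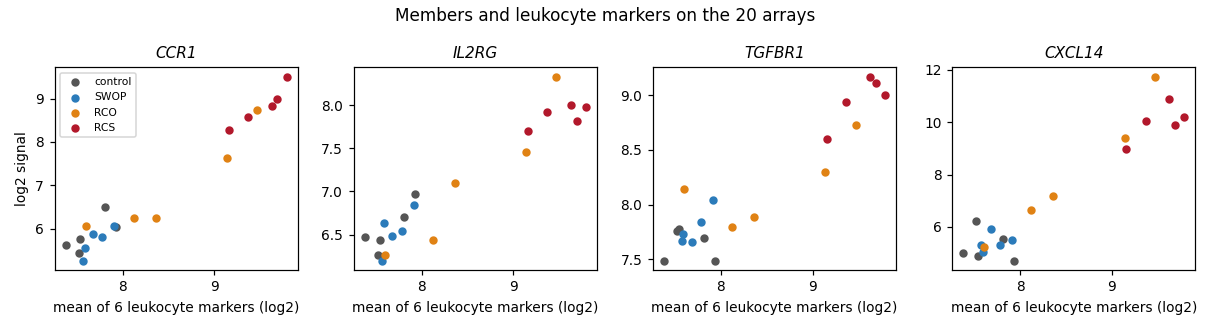
Log2 signal of CCR1, IL2RG, TGFBR1 and CXCL14 against the mean log2 signal of 6 leukocyte markers on the 20 arrays, coloured by group. Of the RCO arrays, replicate 2 has a marker mean (9.47) inside the RCS range (9.16 to 9.79). Replicate 3 (9.14) lies just below that range, and its CCR1 (7.64), IL2RG (7.46) and TGFBR1 (8.30) are under every RCS array.

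RCO against control asked what repeated short closures do to the same genes. Of the 83 genes 6 rose (CXCL14, TNFAIP8, CXCL9, CCL5, IL27RA and TGFBR1) and 2 fell (CCL14 and TNFAIP8L2), beside 11.3% higher and 4.26% lower of all genes. TNFAIP8 rose by 1.50 ± 0.26 (SE, limma adjusted p = 0.0022), IL27RA by 0.70 ± 0.16 (adjusted p = 0.011) and TGFBR1 by 0.53 ± 0.14 (adjusted p = 0.024), in each case with all 5 RCO arrays above control, as 5.81% of all genes showed. CCL14 fell by 0.78 ± 0.20 (adjusted p = 0.016) with all arrays below, as did 2.71% of all genes. CXCL14 was 6.73-fold higher (2.75 ± 0.77, adjusted p = 0.028), and its RCO replicate 1 lay within the control range. CCL5 was higher by 0.75 ± 0.24, at the limit of the test (adjusted p = 0.05). Of 5 other probe sets of these genes 0 passed in the same direction and 1 in the opposite. Those of CXCL14 (1.83), TNFAIP8 (0.31) and TGFBR1 (0.33 and −0.06) did not pass (limma adjusted p = 0.097, 0.11, 0.33 and 0.81). That of TNFAIP8L2 rose by 0.65 (limma adjusted p = 0.029).

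These RCO calls rest on few arrays. Without RCO replicates 2 and 3 only TNFAIP8 passed (1.01, limma adjusted p = 0.014), CXCL14 stood at 1.07 (0.15), IL27RA at 0.35 (0.061), TGFBR1 at 0.30 (0.19) and CCL14 at −0.80 (0.055), with adjusted p in brackets. With only the 2 groups fitted, 2 of the 8 calls were kept. Of the 8 calls, 3 were kept whichever single array was left out, those of TNFAIP8, IL27RA and CCL14. The count was 15 without RCO replicate 1 or 5, 3 without RCO replicate 3, 4 without control replicate 1 or 2, and 5 without control replicate 5, RCO replicate 2, SWOP replicates 2 or 3, or RCS replicates 2 or 4. CXCL14 lost its call without control replicates 1, 2 or 5 (adjusted p = 0.058, 0.063 and 0.059) or RCO replicate 3 (0.087), and TGFBR1 without control replicates 2 or 5 (0.065 and 0.055) or RCO replicates 2 or 3 (0.057 and 0.067). CCL5 kept its call only in the fits without control replicate 5 or RCO replicate 1, and TNFAIP8L2 only in those without control replicate 4, RCO replicates 1 or 5, or RCS replicates 1 or 5.

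CXCL9, a chemokine that interferon gamma induces and that attracts T cells, was highest in RCO. It read 7.68, 7.48, 7.82, 7.26 and 9.83 in control, 8.71, 8.46, 8.41, 9.01 and 7.90 in SWOP, 10.27, 8.97, 9.20, 10.01 and 8.66 in RCO, and 9.27, 8.12, 7.45, 8.27 and 7.33 in RCS. All RCO arrays exceeded the controls other than replicate 5, which alone among the controls was high. RCO differed from control by 1.41 ± 0.43 (SE, limma adjusted p = 0.043) and RCS from RCO by −1.33 ± 0.43 (adjusted p = 0.037), whereas RCS and control differed by 0.07 (95% interval −0.83 to 0.98). Without control replicate 5 the RCO difference was 1.86 (limma adjusted p = 0.0046). The call was lost in 11 of the 20 fits with an array left out: control replicates 1 to 4, RCO replicates 1, 3 and 4, SWOP replicates 2 and 3, and RCS replicates 2 and 4. The call between RCS and RCO was lost without RCO replicates 1 or 4 or RCS replicates 2, 3, 4 or 5 (adjusted p up to 0.11). RCO replicates 1 and 4 carried the highest CXCL9, not replicates 2 and 3, which had the highest leukocyte markers.

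SWOP against control asked what remains 24 h after the short stimulus. Of the 83 genes 4 fell and 0 rose, beside 3.50% lower and 4.66% higher of all genes. All SWOP arrays lay below all controls in 6 genes and above in 2, beside 5.42% and 9.64% of all genes, and 23 had an unadjusted limma p below 0.05. All 4 are ligands: TNF at −0.58 ± 0.14 (SE, limma adjusted p = 0.019), CSF3 at −0.52 ± 0.10 (0.01), CCL4 at −0.52 ± 0.14 (0.037) and IFNA1 at −0.30 ± 0.08 (0.034). CCL4 read 8.71, 8.66, 8.80, 9.68 and 9.11 in control and 8.64, 8.47, 8.46, 8.40 and 8.41 in SWOP, with control and SWOP just apart. CSF3 was the gene whose call held without any single array. TNF was lost without control replicate 4 (−0.49, adjusted p = 0.06), SWOP replicate 2 (0.051) or SWOP replicate 4 (0.055), and CCL4 without control replicate 4 (−0.34, adjusted p = 0.074), control replicate 5, or SWOP replicates 2, 3, 4 or 5. The count was 1 without control replicate 4, SWOP replicate 2 or SWOP replicate 4, 2 without control replicate 5 or SWOP replicate 5, and 7 without SWOP replicate 1. IFNA1 lost its call after quantile normalization (−0.27, limma adjusted p = 0.063) and when control replicate 1, 2, 4 or 5 or the SWOP array of the same number was left out. On SWOP arrays the interquartile range was 3.26 to 3.30, above the 3.04 to 3.16 of controls. The median of dim probe sets was 4.48 to 4.50, below the 4.53 to 4.59 of controls. The part of both measures in these falls was not tested.

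The protocols were also compared with each other, with the same SWOP, RCO and RCS arrays in several comparisons. Between RCS and SWOP 29 genes passed, 20 higher in RCS and 9 lower, beside 38.0% of all genes (20.3% higher and 17.7% lower). All RCS arrays lay above all SWOP arrays in 18 genes and below in 9, beside 17.9% and 14.3% of all genes. Of the receptors 13 of 29 were higher and 2 lower (IL11RA at −0.94, limma adjusted p = 6.9e-05, and IL13RA1 at −0.35, adjusted p = 0.025). CCR1 differed by 3.13, IL2RG by 1.34, TNFRSF12A by 1.26, TGFBR1 by 1.18 and IL10RB by 1.11, with no overlap of arrays in any of these 5 (adjusted p = 1.6e-05 to 0.00077). IL17B passed here (−0.90, adjusted p = 0.033), where SWOP replicate 1 read 8.52 and the other SWOP arrays 6.72 to 7.52, and it was lost without that array, SWOP replicate 4, or RCS replicates 2, 3 or 4. The other probe sets of IL17B did not pass (−0.35 and 0.11, limma adjusted p = 0.22 and 0.48). TNF did not pass between RCS and SWOP. Of the 29 calls 25 were kept whichever single array was left out.

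RCS and RCO share the number and spacing of episodes. They differ in both the kind and the length of ischemia, which cannot be told apart here. Between them 20 genes passed, 9 higher in RCS and 11 lower, beside 21.6% of all genes (11.7% and 9.90%). CCR1 (1.85 ± 0.39, SE, limma adjusted p = 0.0048), TNFAIP8 (1.29 ± 0.26, 0.0042), TGFBR1 (0.79 ± 0.14, 0.0024), IL4R (0.77 ± 0.19, 0.01) and TGFB1 (0.76 ± 0.18, 0.01) were higher in RCS. All 9 overlapped between the groups, where 3.52% of all genes lay wholly above. CSF3 (−0.56 ± 0.10, adjusted p = 0.0023), TNF (−0.54 ± 0.14, 0.012), IL15 (−0.49 ± 0.11, 0.0079) and IL12RB2 (−0.42 ± 0.11, 0.014) were lower. CSF3, IL12RB2, CCL19 and CCL4 lay wholly below RCO, as 3.44% of all genes did, and CCL4 did not pass. The call of IL12RB2 was lost without RCS replicate 3 (adjusted p = 0.05), the others named with values here were kept whichever single array was left out, and 9 of the 20 calls were kept in that way. With only these 2 groups fitted, 4 of the 20 calls were kept. Without RCO replicates 2 and 3 the count was 35. It was 32 without RCO replicate 2, 13 without RCO replicate 1 or 5, and 9 without RCS replicate 3.

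Between RCO and SWOP 12 genes passed, 9 higher in RCO and 3 lower, beside 11.9% of all genes (5.54% and 6.40%). In 9 genes all RCO arrays lay above all SWOP arrays and in 2 below, beside 3.28% and 4.01% of all genes. The monocyte receptors CCR1 (1.28 ± 0.39, SE, limma adjusted p = 0.042) and CCR2 (0.63 ± 0.16, adjusted p = 0.023) were both higher in RCO. CCR2 read 6.53, 7.19, 7.52, 6.83 and 6.54 in RCO and 6.24, 6.35, 6.50, 6.38 and 6.00 in SWOP, just apart, and did not pass against control (0.23, adjusted p = 0.39). CXCL16, a chemokine with a membrane-bound form, differed by 0.96 (adjusted p = 0.031) and CCL8, a monocyte attractant, by 0.71 (0.044). IL11RA was lower in RCO with all arrays below SWOP (−0.62 ± 0.14, limma adjusted p = 0.01). TNFAIP8, TNFRSF12A, IL10RB, IL11RA and TNFAIP8L2 kept their calls whichever single array was left out. Of 4 other probe sets of the genes that passed, 2 passed in the same direction and 1 in the opposite. The latter was that of TNFAIP8L2, at 0.76 (limma adjusted p = 0.016) against −0.57 on the brighter one, so the direction of this gene is not settled. CCR1 and CCL8 lost theirs without RCO replicates 2 or 3 and several other arrays (7 and 10 of the 20 fits), and CCR2 without RCO replicate 3 or SWOP replicate 5. Without RCO replicates 2 and 3 the count was 4. It was 5 without RCO replicate 3 or SWOP replicate 5, 6 without SWOP replicate 2, and 7 without RCO replicate 2 or SWOP replicates 3 or 4. With only these 2 groups fitted, 4 of the 12 calls were kept.

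Genes that carry cytokine signals inside the cell were read from a list of 72, of which 36 were measured (JAK kinases, STAT and IRF factors, NF-kB, SMAD and adaptor proteins). In RCS 12 rose and 4 fell (median 0.15), so that 44.4% passed beside 54.5% of all genes. JAK3, the kinase bound to IL2RG, rose by 1.38 (limma adjusted p = 3.7e-05), STAT3, the factor downstream of IL6 family receptors, by 0.90 (adjusted p = 0.00038), and IRF8, a factor of the myeloid lineage, by 1.11 (adjusted p = 0.00069). SOCS1, an inhibitor of JAK kinases, fell by 0.47 (adjusted p = 0.00035). All JAK3, STAT3 and IRF8 values of RCS exceeded control. In RCO 2 of the 36 rose and 0 fell (5.56% beside 15.6% of all genes), with 8 at an unadjusted limma p below 0.05: JAK3 by 0.70 (adjusted p = 0.033) and IRF3, a factor of interferon induction, by 0.34 (adjusted p = 0.0091). Without RCO replicates 2 and 3 neither passed. In SWOP IRF3 alone rose (0.29, adjusted p = 0.03), which is 2.78% of the list beside 8.16% of all genes, with 6 at an unadjusted limma p below 0.05, and 0 of the list passed after quantile normalization or when control replicate 2, 4 or 5 or the SWOP array of the same number was left out.

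Cytokine genes whose symbols fall outside the chosen families were read from a list of 47, of which 24 were measured. In RCS 8 rose and 2 fell (median 0.09), so that 41.7% passed beside 54.5% of all genes. CCRL2, an atypical chemokine receptor, rose by 0.95 (limma adjusted p = 0.0001), MIF, a macrophage regulator, by 0.91 (adjusted p = 0.00013), ENG, an endothelial co-receptor of TGF-beta, by 0.59 (adjusted p = 0.0026) and CD74, the receptor of MIF, by 0.66 (adjusted p = 0.014). LTB and FASLG, TNF family ligands of lymphocytes, fell by 0.35 and 0.27 (adjusted p = 0.042 and 0.016). In RCO 1 gene rose (CCRL2, 0.51, limma adjusted p = 0.043) and in SWOP 1 fell (XCR1, −0.32, adjusted p = 0.039). These are 4.17% of the list each, beside 15.6% and 8.16% of all genes.

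In 27 of the 83 genes no comparison passed. Beside IL6, CXCL8, IL1B, TGFBR3, TNFRSF21, TNFAIP1 and IL18BP, already given, they include IL34, a ligand of the CSF1 receptor (8.29 to 9.22 over all arrays), and CCL21, a chemokine of lymphatic vessels (8.03 to 9.96). The remaining ones are CCL28, CCL3L1, CCR3, CCR7, CCR9, CXCL13, CXCR6, IL10, IL12A, IL12B, IL16, IL17A, IL18R1, IL1A, IL5, IL7, IL7R and, as given above, TNFRSF17. IL10, which restrains macrophages, read 6.48, 7.45, 6.37, 6.16 and 6.51 in RCO, where replicate 2 was the highest of all 20 arrays, and 5.84 to 6.32 in control. IL16, a ligand of CD4, stayed between 7.05 and 7.86, and IL7 and IL17A, cytokines of lymphoid tissue and of T cells, lay under 4.2 on every array.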

How the data were processed

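Total RNA of 20 pig hearts was labelled with biotin and hybridised to the Affymetrix porcine array, 1 array per animal, per the labels' protocols. The authors deposited 1 table of log2 values. The submitters' processing notes name RMA and MAS5 without saying which made the table; the values have the range of log2 signals, and their log base and scale are otherwise not given in the sources used here.

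Of 24123 probe sets 124 control spots were left out and 23999 were tested, with no filter on low values. Probe sets were named through the platform's gene table: 10069 have 1 symbol, 198 several and 13732 none, and 3 that match the families but carry several symbols were left out. Gene names and gene order were taken from RefSeq (Sscrofa11.1), where all 83 genes were found under the same symbol. Differences were fitted with limma 3.58.1 in R 4.3.3 (lmFit and eBayes) on 4 group means over all arrays, with Benjamini-Hochberg adjustment over all probe sets. Python 3.11.15 (numpy 2.4.6, pandas 2.3.3) served for tables, matplotlib 3.10.9 for plots, and the fit was tested on simulated data. Intervals are 95% confidence intervals of a difference between group means, with the spread between animals as limma estimated it over all arrays.

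Genes named are those that passed in at least 1 of 6 comparisons (by smallest p, up to 30 per comparison), the 6 of highest mean signal per class, CCL2, IL6, CXCL8, TNF, IL1B and TGFB1, and up to 4 signalling genes per comparison against control. Beyond that rule, the remaining genes that passed in RCS, CCL3L1, IL1A, IL10, CCR3 and others that passed nowhere, and the genes given from the list of other cytokines were named after their values were seen. The members and gene lists were chosen with earlier results of these data known.

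Alternatives were quantile normalization, centring on array medians, a trended and robust spread, array weights, a fit of only the 2 groups compared, a replicate block, averaging the probe sets of each gene, a filter on dim probe sets, leaving out each array, and, added after the data were seen, leaving out RCO replicates 2 and 3 together and the 2 arrays of high spike-in signal (RCO replicate 1 and SWOP replicate 1).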

Additional observations from a re-analysis of the deposited data

Results flagged for a closer look

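In groups of 5 arrays, a lone value was marked where its gap to the nearest array exceeded 0.71 of the group's range. Of 256 groups 17 were marked (6.64%), where chance gives about 1 in 20. RCO replicate 2 accounted for 5: CCL2 (11.82, nearest RCO array 10.55), CCL8 (7.62, nearest 6.76), CCL19 (8.20, nearest 6.80) and CXCL8 (5.18, nearest 4.15) were high, and TNFAIP1 was low (6.47, nearest 8.72). Control replicate 4 accounted for 3, all early inflammatory cytokines: IL6 (9.98, nearest control 5.67), CXCL8 (8.96, nearest 4.19) and IL1B (10.17, nearest 7.28).

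RCS replicate 3 accounted for 3: IFNGR1 was high (9.60, nearest 9.23), and CCL4 (8.26, nearest 8.66) and IL12RB2 (6.00, nearest 6.29) were low. Control replicate 2 was low in IL10RB (6.85, nearest 7.25) and high in IL2 (4.98, nearest 4.68). The rest were single cases: CXCL9 high in control replicate 5 (9.83, nearest 7.82), TNFRSF1B low in control replicate 3 (9.15, nearest 9.5), and IFNA1 high in SWOP replicate 3 (6.65, nearest 6.50) and RCS replicate 2 (6.62, nearest 6.40).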

How the results depend on the processing

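The RCS results moved least: 39 to 51 genes passed against control over the alternatives that use all arrays of a group, beside 49 as reported, and 43 to 50 with an array left out. The other counts moved with the setting, and the cause was not tested. In SWOP against control (4 reported) 18 genes passed with array weights, 12 with only the 2 groups fitted, 9 without both spike-in arrays (named above) and 1 to 7 with an array left out. In RCO against control (8 reported) it was 5 with a trended and robust spread, 2 with only the 2 groups, 1 without RCO replicates 2 and 3, 16 without the spike-in arrays and 3 to 15 with an array left out. In RCO against SWOP (12 reported) it was 5 with only the 2 groups, 4 without RCO replicates 2 and 3 and 5 to 14 with an array left out. In RCS against RCO (20 reported) it was 4 with only the 2 groups, 35 without RCO replicates 2 and 3, 13 without the spike-in arrays and 9 to 32 with an array left out. In RCS against SWOP (29 reported) an array left out gave 27 to 34.

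Of the signalling list in SWOP (1 reported), 0 passed after quantile normalization, 5 with array weights, 3 with only the 2 groups, 2 with the mean of probe sets and 0 to 3 with an array left out. In RCO (2 reported) it was 0 with only the 2 groups or without RCO replicates 2 and 3, 5 without the spike-in arrays and 1 to 5 with an array left out, and in RCS (16 reported) 15 to 19.

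Some small differences changed sign. With an array left out, CCL2 in SWOP lay between −0.65 and 0.17 and CXCL8 in RCO between −1.02 and 0.27, the higher value without control replicate 4 in both. TGFB1 in SWOP was −0.06 after quantile normalization, −0.03 with array weights, and −0.10 without the spike-in arrays, and lay between −0.10 (without SWOP replicate 1) and 0.08 with an array left out, below 0 also without control replicate 3 (−0.01). In RCO it lay between −0.06 (RCO replicate 2 left out) and 0.19, at −0.01 for RCO replicate 3, and at −0.23 when both were left out. With the mean of its probe sets TNFAIP8L2 was 0.16 in RCO and 0.39 in RCS against control, and 0.10 and 0.33 against SWOP.

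Deviations from the group means correlated at −0.18 to 0.44 between arrays of equal replicate number. Of 20 arrays 11 correlated best, among arrays of other groups, with an array of their own number, more than unrelated numbers would give. What arrays of equal number share was not tested. The labels pair no animals, and the numbers were not taken to pair them. With the replicate number as a block, 4, 8 and 49 genes passed in SWOP, RCO and RCS against control, 13 in RCO against SWOP, 32 in RCS against SWOP and 21 in RCS against RCO. With dim probe sets left out 60 genes were measured. Signals under the 30th percentile lie near the background of the array, so differences there are bounded by it.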
